A study of Mus musculus with 37 samples.

Results

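Bone marrow of mice that had rested for 1 week after 10 social defeats was compared, gene by gene, with marrow of mice that were never defeated. Social defeat exposes a mouse to an aggressive opponent, here once per day. The comparison took the 4 marrow libraries labelled as stressed 10 times with recovery (D1, D2, D3 and D8) and the 3 control marrow libraries (C1, C2 and C4), which are 7 of the 19 marrow libraries and of the 37 libraries of marrow and spleen in all. All were polyadenylated RNA flushed from the femur of wild-type C57BL/6N mice. Rested mice had 10 defeats followed by 1 week without intervention, controls had 0 defeats, and 5 further marrow libraries, given beside them without a test, came from mice taken after 10 defeats with no rest. Sex, age and housing of the groups are not given in the sources used here, and the libraries are described as separate biological replicates. The rested and the unrested group are both set against the same 3 controls, so their differences are not independent of each other.

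Bone marrow makes red cells, platelets, neutrophils, monocytes and B lymphocytes from shared progenitors, and also holds mature B and T cells and plasma cells that return to it from blood. Repeated social defeat is known in mice for expanding marrow output of neutrophils and monocytes at the expense of lymphoid and erythroid cells, through sympathetic nerves and glucocorticoids. Neutrophil precursors fill their granules in order, first with myeloperoxidase and serine proteases and later with lactoferrin and cathelicidin, while megakaryocytes carry the adhesion receptors and chemokine stores that they pass to platelets. In bulk RNA, fewer cells of a type and less RNA per cell cannot be told apart.

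Promoters of 7 genes from the early granule, mature B cell, and megakaryocyte and platelet lists are shown because short words recognised by lineage factors recur in them. Each sequence is the 250 bases before the RefSeq gene start on GRCm38.p6, written 5′ to 3′ on the gene's strand: Mpo at chr11:87793534-87793783 on the plus strand, Elane at chr10:79886062-79886311 on the plus strand, Prtn3 at chr10:79879417-79879666 on the plus strand, Cd79a at chr7:24897247-24897496 on the plus strand, Cd22 at chr7:30879029-30879278 on the minus strand, F2rl2 at chr13:95696670-95696919 on the plus strand, Gp5 at chr16:30310782-30311031 on the minus strand. Capitals mark GGAAGT, the core of sites for the myeloid and B cell factor PU.1, in Mpo, Elane and Prtn3. They mark CACCTG, an E-box word bound by B cell factors of the E2A family, in Cd79a and Cd22, and AGATAA, a word bound by GATA factors, in F2rl2 and Gp5, with either strand counted.
Mpo: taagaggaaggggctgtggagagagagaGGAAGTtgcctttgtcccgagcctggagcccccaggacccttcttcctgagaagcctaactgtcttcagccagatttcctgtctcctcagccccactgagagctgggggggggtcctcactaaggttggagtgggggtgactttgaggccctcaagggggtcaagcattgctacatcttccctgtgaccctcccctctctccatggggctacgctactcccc
Elane: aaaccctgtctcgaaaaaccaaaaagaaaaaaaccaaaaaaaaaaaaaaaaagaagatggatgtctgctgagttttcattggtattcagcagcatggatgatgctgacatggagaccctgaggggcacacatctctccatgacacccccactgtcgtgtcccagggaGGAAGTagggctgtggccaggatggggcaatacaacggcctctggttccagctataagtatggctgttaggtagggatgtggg
Prtn3: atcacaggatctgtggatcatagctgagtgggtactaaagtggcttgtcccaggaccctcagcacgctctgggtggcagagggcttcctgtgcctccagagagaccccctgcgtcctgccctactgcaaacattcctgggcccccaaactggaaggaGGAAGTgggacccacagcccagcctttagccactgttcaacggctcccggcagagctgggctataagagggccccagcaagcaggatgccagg
Cd79a: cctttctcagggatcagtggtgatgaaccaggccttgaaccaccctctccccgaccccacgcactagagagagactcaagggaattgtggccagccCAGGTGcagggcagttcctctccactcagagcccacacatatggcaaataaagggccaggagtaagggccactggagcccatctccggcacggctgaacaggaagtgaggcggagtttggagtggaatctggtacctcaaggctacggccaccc
Cd22: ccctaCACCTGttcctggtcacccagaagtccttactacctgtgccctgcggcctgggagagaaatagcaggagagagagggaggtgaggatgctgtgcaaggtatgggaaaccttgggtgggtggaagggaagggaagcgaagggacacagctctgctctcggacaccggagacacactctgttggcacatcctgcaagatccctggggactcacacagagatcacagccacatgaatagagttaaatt
F2rl2: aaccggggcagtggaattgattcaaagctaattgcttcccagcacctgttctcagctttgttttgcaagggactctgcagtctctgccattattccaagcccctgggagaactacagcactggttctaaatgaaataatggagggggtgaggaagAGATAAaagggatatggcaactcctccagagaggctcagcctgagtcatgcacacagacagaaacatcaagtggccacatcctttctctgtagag
Gp5: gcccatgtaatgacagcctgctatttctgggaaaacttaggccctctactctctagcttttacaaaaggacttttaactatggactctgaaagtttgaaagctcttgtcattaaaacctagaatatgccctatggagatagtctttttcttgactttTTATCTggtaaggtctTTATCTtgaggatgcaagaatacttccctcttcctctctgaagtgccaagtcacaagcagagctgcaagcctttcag
GGAAGT occurred on either strand in 8 of 10 early granule promoters with an entry, against 24.6% of the 9311 tested genes with one. CACCTG occurred in 8 of 15 mature B cell promoters, against 14.4% of all. AGATAA occurred in 4 of 21 megakaryocyte and platelet promoters and in 8 of 21 erythroid promoters, against 6.18% of all. The words were not particular to those lists: GGAAGT also occurred in 14 of 21 mature neutrophil, 8 of 14 late granule, 5 of 10 T cell and 7 of 15 mature B cell promoters, CACCTG in 5 of 10 T cell promoters and AGATAA in 3 of 14 late granule promoters. These 3 words were picked, after the shares had been seen, from 11 that were searched, which included other forms of the ETS word, the octamer, C/EBP words, EBF1 palindromes and the interferon-response word. A longer PU.1 word that was searched contains GGAAGT. The shares are descriptions of sequence and carry no test.

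The deposited values are abundances scaled per library, and steps between the low values gave an estimated depth of 9.77 to 22.0 M reads in these 7 libraries. The defining genes of marrow were present in all 7, among them Hbb-bs at values of 45265 to 159315, Camp at 3109 to 6837 and Cd79a at 79.3 to 337. On the first principal component of all marrow libraries, with 43.1% of the variance, D1, D2, D3 and D8 lay at 0.383, -14.6, -10.6 and -14.9. Controls lay between -36.4 and -29.3 there, and the 10 times defeated libraries between 19.1 and 62.7. The 4 rested libraries were not alike. On the second component, with 9.52% of the variance, D1 and D2 lay at 30.9 and 28.4, and D3 and D8 at 3.60 and -6.36. Controls lay between -5.00 and 11.1 on it. The 12 haemoglobin genes took 44.3%, 43.2% and 38.7% of all values in C1, C2 and C4, and 16.1%, 21.7%, 36.3% and 39.1% in D1, D2, D3 and D8. The share averaged 28.3% ± 11.2 (SD, n = 4) in rested and 42.1% ± 2.96 (SD, n = 3) in control marrow, a difference of -13.8 percentage points. D1 and D2 lay far below the controls and D8 within them, and the exact two-sided permutation test gave p = 0.114, where the smallest p that 4 against 3 libraries allow is 0.0571. Without D1 and D2 the medians of several gene lists were lower, and those values stand beside the lists below.

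**Figure D1:**
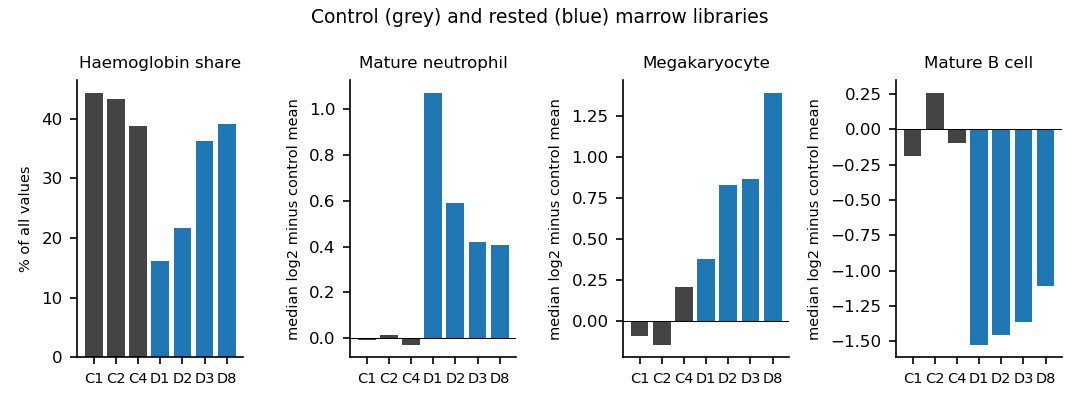
Bars give the haemoglobin share of each library as a percentage of all values and, in the other panels, the median over a gene list of log2(value + 1) minus the control mean, for controls C1, C2 and C4 (grey) and rested D1, D2, D3 and D8 (blue). The mature neutrophil list is highest in D1 (1.07) and the megakaryocyte list in D8 (1.40), while the mature B cell list is below every control in all 4 rested libraries.

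No gene passed the threshold of the test over all marrow groups. With limma on log2(value + 1), in a fit of the 5 marrow groups that share an estimate of spread, 0 of 12442 tested genes (0.0%) had a Benjamini-Hochberg adjusted p under 0.05, and the smallest was 0.0723, shared by 19 genes, among them Bank1, Btla, Cxcr5, Fcrl1, F2rl3 and Plek. At an unadjusted p under 0.05, 926 genes (7.44%) were higher and 842 (6.77%) lower in rested marrow. All 4 rested values lay above all 3 control values for 1210 genes (9.73%) and below them for 1543 (12.4%). A limma fit of these 7 libraries alone, whose groups vary less than the once, 4 times and 10 times defeated ones, called 96 genes higher (0.772%) and 288 lower (2.31%), and in all 384 the groups did not overlap. An adjusted p under 0.05 printed below for a gene is from this fit, and that gene did not pass in the fit of 5 groups. The median SD of log2 values between libraries was 0.114 in controls and 0.170 in rested marrow, against 0.190 to 0.203 in the defeated groups without rest.

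Most genes were close to the control level. The median log2 difference over all tested genes was -0.02, the 95% interval lay within 1 log2 unit of no difference for 11135 genes (89.5%), and within 0.5 for 6476 (52.0%). Differences of more than 1 log2 unit were seen for 55 genes higher and 112 lower. The split between directions depended on scaling: with totals made equal 86.0% of genes at an unadjusted p under 0.05 were higher, and with haemoglobin genes left out 27.4%, against 52.4% as deposited. Those scalings moved the median of all genes to 0.12 and -0.14. Every gene group described next as higher or lower kept its direction under both unless stated.

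**Figure D2:**
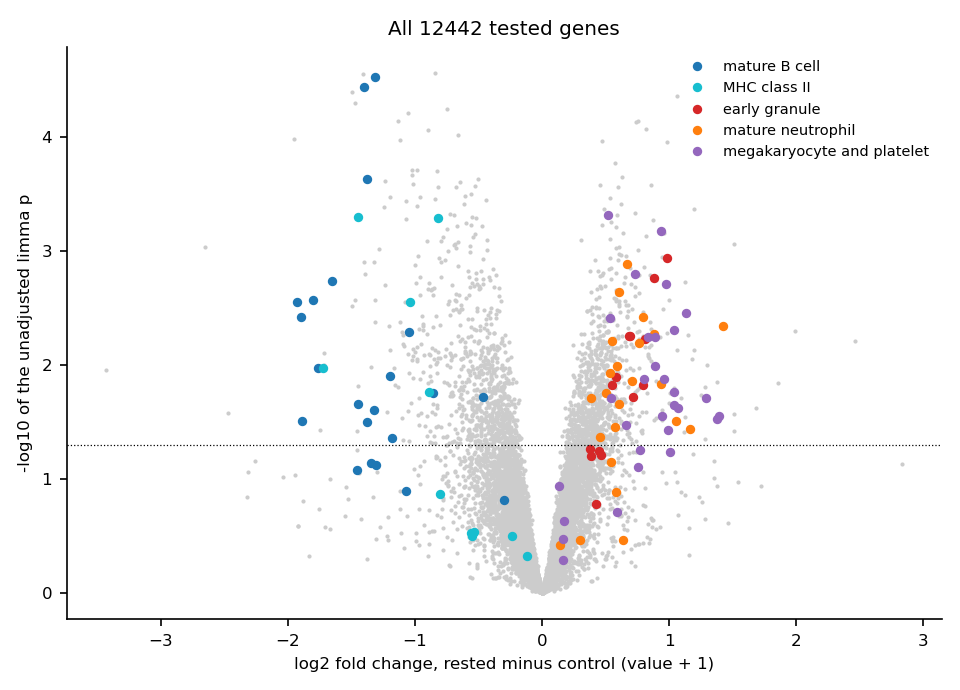
Each point is a tested gene, placed by its log2 fold change (rested minus control, on value + 1) and by the negative log10 of its unadjusted limma p value, with members of 5 gene lists coloured and a dotted line at the unadjusted threshold of 0.05. Mature B cell and MHC class II genes lie to the left, and early granule, mature neutrophil and megakaryocyte genes to the right.

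**Figure D3:**
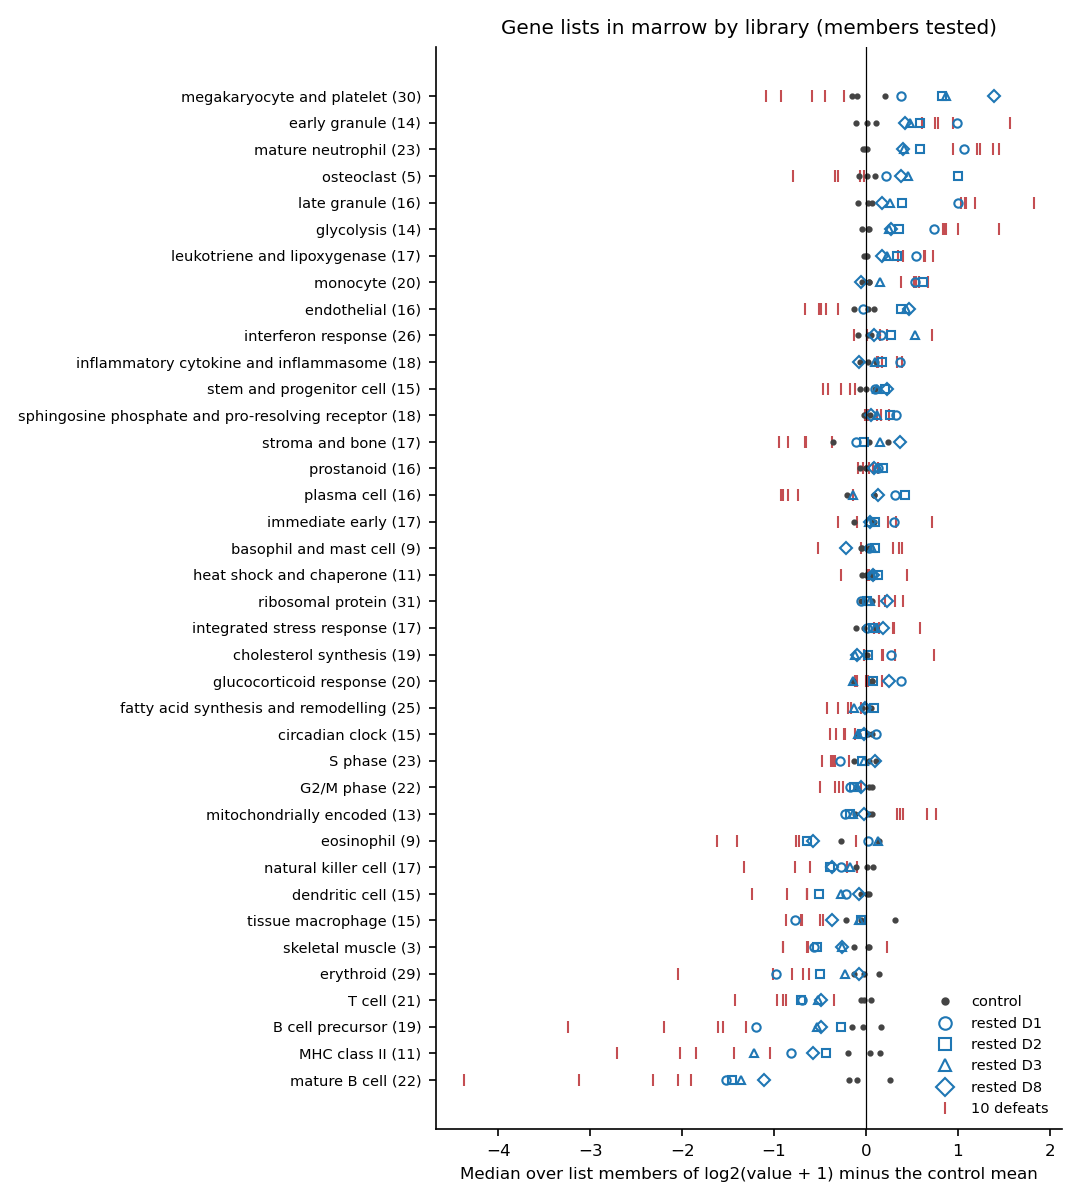
For each gene list, with the number of members tested in brackets, symbols give the median over members of log2(value + 1) minus the control mean in single control, rested and 10 times defeated libraries. The mature B cell list lies at -1.53 to -1.11 in the 4 rested libraries, and the megakaryocyte and platelet list at 0.38 to 1.40.

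Mature B cell transcripts were the gene group furthest below control after the week of rest. All 22 listed genes were tested, their median log2 difference was -1.36, and in 21 every rested library was below every control. The fit of these 7 libraries called 19 of the 22 lower and 0 higher, and 17 were lower at an unadjusted p under 0.05 in the fit of 5 groups. Over all genes 12.4% were lower without overlap, 2.31% were called lower and 6.77% were lower at that p. Members ranged from -1.93 to -0.30.

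Ms4a1, which encodes the B cell surface protein CD20, was measured at 31.8, 48.2 and 36.9 in C1, C2 and C4 and at 11.4, 8.75, 8.81 and 8.59 in D1, D2, D3 and D8. Its 4 rested values lay close together, well under the lowest control. The log2 difference was -1.93 (SE 0.55), with a limma adjusted p of 0.172 in the fit of 5 groups and 0.00253 in the fit of these 7 libraries. Cd22, an inhibitory co-receptor of the B cell receptor, had control values of 35.3, 46.7 and 40.8 and rested values of 12.6, 11.7, 9.03 and 10.6, a log2 difference of -1.81 (SE 0.51). Its groups were apart by more than either group's range, and after 10 defeats without rest it averaged 5.58 ± 3.16 (SD, n = 5).

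Genes of follicular B cells stood at similar distances. Fcer2a, the low-affinity IgE receptor CD23, averaged 23.0 ± 3.72 (SD, n = 3) in controls, 5.52 ± 1.44 (SD, n = 4) in rested marrow and 2.84 ± 1.99 (SD, n = 5) after 10 defeats. Cxcr5, the chemokine receptor that guides B cells to follicles, was 7.53, 7.90 and 7.18 in controls and 2.90, 1.92, 1.41 and 3.0 in rested libraries. Cr2, complement receptor 2, was 4.85, 6.33 and 6.53 in controls and 2.47, 1.10, 1.68 and 1.49 in rested libraries. For both receptors the highest rested value was below the lowest control value. Tnfrsf13c, the receptor for the survival factor BAFF, differed by -1.65 (SE 0.45) and Bank1, an adaptor of B cell receptor signalling, by -1.32 (SE 0.24) on the log2 scale. Cd79a, the signalling chain of the B cell receptor made from the pro-B stage onward, was 239, 337 and 227 in controls and 79.3, 108, 110 and 132 in rested libraries, again without overlap. It averaged 39.7 ± 24.5 (SD, n = 5) in the unrested group.

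The distance held across the rested libraries. The list median was -1.53 in D1, -1.45 in D2, -1.36 in D3 and -1.11 in D8 relative to the control mean, and -1.30 when D1 and D2 were left out. With haemoglobin share as a covariate in the fit of 5 groups it was -0.70. The same list stood at a median of -2.80 after 10 defeats without rest.

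**Figure D4:**
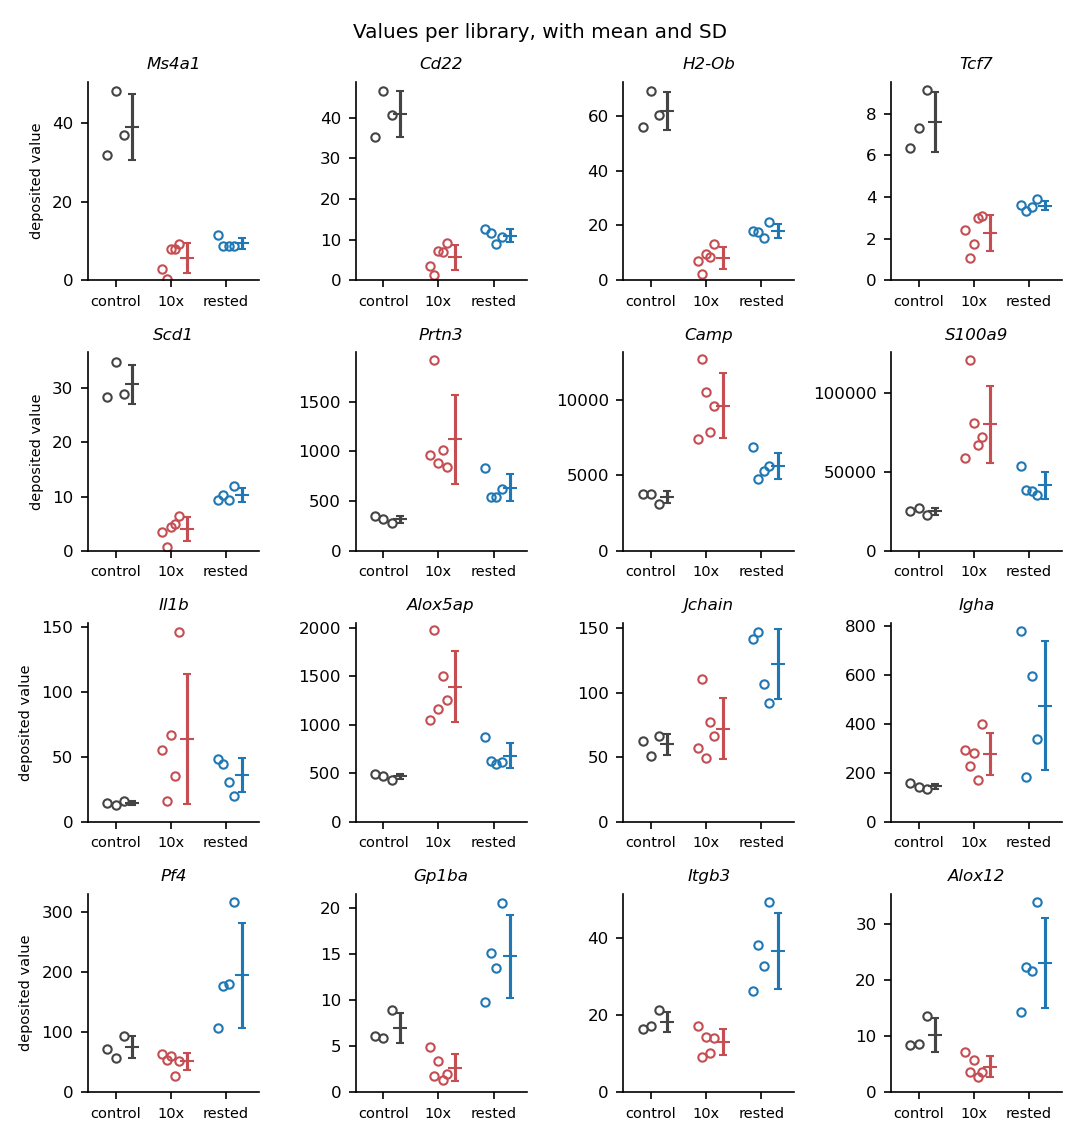
Each circle is the deposited value of a gene in a library, in control, 10 times defeated (10x) and rested marrow, with a dash and bar for the mean and SD; each panel has its own linear axis from 0. B and T cell genes (Ms4a1, Cd22, H2-Ob, Tcf7) and Scd1 are below control in both groups, granulocyte genes are above it in both, and Pf4, Gp1ba, Itgb3 and Alox12 are above control in rested libraries alone.

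Genes of antigen presentation on MHC class II split by gene. All 11 were below control on average, with a list median of -0.80, 6 without overlap, and 5 called lower in the fit of these 7 libraries. Over all genes 12.4% were lower without overlap and 2.31% were called lower. H2-Ob, the beta chain of the H2-O protein that restrains peptide loading in B cells, was 55.8, 69.2 and 60.2 in controls and 17.8, 17.7, 15.3 and 21.3 in rested libraries. Every rested value was far below the lowest control. Its partner H2-Oa averaged 17 ± 1.24 (SD, n = 3) in controls and 7.75 ± 0.922 (SD, n = 4) in rested marrow, and H2-DMb2, a chain of the peptide-loading protein H2-DM, averaged 42.7 ± 4.67 and 15.2 ± 3.23. The classical chains H2-Aa, H2-Ab1 and H2-Eb1, which present the peptides, differed by -0.55, -0.53 and -0.56, with overlapping groups. With haemoglobin share as a covariate the list median was -0.16.

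B cell precursor genes were below control by less, and unevenly. The median of 19 tested genes was -0.59, with 17 lower and 2 higher on average. Without overlap 10 were lower, where 12.4% of all genes were. The fit of these 7 libraries called 7 lower, where 2.31% of all genes were. With totals made equal 5 were lower without overlap, where 460 of 12442 genes were. With haemoglobin genes left out 12 were, where 3062 of 12438 genes were. Igll1, Vpreb1b and Dntt differed by only -0.16, 0.01 and -0.09, and Arpp21 by 0.35. Akap12, a kinase-anchoring protein, was 12.1, 16.6 and 13.7 in controls and 5.49, 7.88, 6.39 and 7.23 in rested libraries. Rag1, which cuts DNA to rearrange antigen receptor genes, was 7.44, 15.2 and 7.73 in controls and 5.29, 7.35, 5.48 and 4.61 in rested libraries. Both were below the controls in every rested library, although D2 nearly reached the lowest control for Rag1.

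The surrogate light chain gene Vpreb1a, named Vpreb1 in the list, marks the pre-B receptor and was 33.3, 35.8 and 26.3 in controls and 7.48, 53.9, 42.5 and 50.9 in rested libraries. D1 lay below all controls, and D2, D3 and D8 lay above all of them. Without D1, in the fit of these 7 libraries, its log2 difference was 0.62, against -0.02 with it. Its mean after 10 defeats was 9.74 ± 5.73 (SD, n = 5). The list as a whole was at -1.20 in D1 and at -0.27 to -0.54 in the other rested libraries, and its median was -0.09 with haemoglobin share as a covariate.

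T cell genes were also lower, and natural killer genes less clearly. Of 21 tested T cell genes 16 were lower without overlap and 11 were called lower in the fit of these 7 libraries. Over all genes those shares were 12.4% and 2.31%. The list median was -0.56, or -0.23 with haemoglobin share as a covariate. Tcf7, a transcription factor of naive and memory T cells, was 6.35, 7.32 and 9.15 in controls and 3.63, 3.34, 3.5 and 3.89 in rested libraries. Cd8b1, the beta chain of the CD8 co-receptor, was 4.72, 4.27 and 4.57 in controls and 1.83, 1.33, 1.40 and 2.43 in rested libraries. In both, every rested value was below every control value. Among natural killer genes the median was -0.25 over 17 tested, or -0.0096 with haemoglobin share as a covariate. Without overlap 7 were lower and 1 higher, where 12.4% and 9.73% of all genes were. Dendritic cell genes had a median of -0.25 over 15 tested, or -0.14 with the covariate. Without overlap 5 were lower, and with totals made equal 2 were lower and 1 higher, where 460 and 1627 of 12442 genes were. Cd209d, a C-type lectin, averaged 4.22 ± 0.259 in controls and 2.63 ± 0.795 in rested marrow.

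Plasma cell genes were mixed. Of 16 tested, 8 averaged higher than control and 8 lower. At an unadjusted p under 0.05, 5 were higher and 0 lower, where 7.44% and 6.77% of all genes were. Without overlap 3 were higher and 2 lower, where 9.73% and 12.4% of all genes were. The lower ones were Pou2af1 (-0.96) and Irf4 (-0.72), transcription regulators that B cells also use. Sdc1, Mzb1, Derl3, Txndc5 and Slamf7 differed by -0.07, -0.30, -0.21, -0.21 and -0.41. Jchain, which joins IgM and IgA into polymers, was 62.8, 50.7 and 66.2 in controls and 142, 148, 107 and 92.1 in rested libraries. Every rested value exceeded every control, with a log2 difference of 1.00 (SE 0.29) and a limma adjusted p of 0.0298 in the fit of these 7 libraries. Igha, the constant region of IgA, was 157, 142 and 134 in controls and 781, 184, 598 and 339 in rested libraries, and averaged 276 ± 85.9 (SD, n = 5) after 10 defeats. D2 was the lowest rested library for Igha, while for Ighg2b, the constant region of IgG2b, D2 was the highest at 871, against 14.4 to 97.3 in controls and 78.1 in D8. Reads of immunoglobulin constant regions may be shared among near-identical copies, so single values are uncertain. The list median of 0.16 became -0.03 without D1 and D2.

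Granulocyte genes stayed above control on average at each stage of maturation, least distinctly in the late granule list. Early granule genes had a median of 0.63 over 14 tested, with 13 higher without overlap and 6 called higher in the fit of these 7 libraries. Late granule genes had a median of 0.49 over 16 tested, with 11 higher without overlap and 1 called, and mature neutrophil genes a median of 0.61 over 23 tested, with 20 higher without overlap and 4 called. In none of the 3 lists was a gene lower without overlap. Over all genes 9.73% were higher without overlap and 0.772% were called higher. With quantile normalization the counts higher without overlap were 12 early granule, 3 late granule and 18 mature neutrophil genes, where 1455 of 12442 genes were. With haemoglobin genes left out and totals made equal they were 12, 7 and 17, where 545 of 12438 genes were. After 10 defeats the 3 medians were 0.93, 1.27 and 1.28.

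Prtn3, the azurophil granule protease proteinase 3 whose promoter is shown above, was 350, 316 and 282 in controls and 830, 538, 546 and 624 in rested libraries. Elane, neutrophil elastase, was 449, 379 and 346 in controls and 811, 675, 671 and 725 in rested libraries, and Mpo, myeloperoxidase, was 651, 606 and 553 against 1216, 919, 858 and 945. All 3 genes had every rested library above every control, with D1 the highest. Their log2 differences were 0.99 (SE 0.25), 0.88 (SE 0.24) and 0.70 (SE 0.22), and limma adjusted p values in the fit of these 7 libraries were 0.0216, 0.0104 and 0.0333.

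Among later genes Camp, the cathelicidin precursor, was 3767, 3790 and 3109 in controls and 6837, 4757, 5281 and 5584 in rested libraries. S100a9, a calcium-binding alarmin abundant in neutrophils, was 25256, 27172 and 22650 in controls and 53851, 38702, 37909 and 35308 in rested libraries, and averaged 80017 ± 24211 (SD, n = 5) after 10 defeats. For both genes all rested values were above the controls. Wfdc17, a whey acidic protein family member of activated myeloid cells, stood at 31.7 ± 0.945 (SD, n = 3) in controls and at 212, 106, 54.3 and 46.3 in D1, D2, D3 and D8. Il1b, the inflammatory cytokine, was 14.4, 13.1 and 16.2 in controls and 48.7, 44.3, 30.4 and 19.7 in the same order. Both were highest in D1 and lowest in D8, where Il1b came near the highest control.

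The granulocyte signal was graded across the rested libraries, and in the reverse order of the haemoglobin share. The mature neutrophil median was 1.07 in D1, 0.59 in D2, 0.42 in D3 and 0.40 in D8, and without D1 and D2 it was 0.39. Late granule genes were at 0.25 without D1 and D2, and at 0.10 with haemoglobin share as a covariate. Early granule genes kept 0.48 without D1 and D2 and 0.29 with the covariate. With haemoglobin genes left out and totals made equal the medians of the 3 lists were 0.50, 0.35 and 0.47 in order of maturation, where the median of all genes was -0.14.

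Glycolysis genes were also above control. Of 14 tested, 11 were higher without overlap, where 9.73% of all genes were, with a median of 0.44, highest in D1 at 0.75. The median was 0.26 without D1 and D2 and 0.17 with haemoglobin share as a covariate. Pkm, pyruvate kinase, was 335, 344 and 313 in controls and 639, 472, 396 and 410 in rested libraries. Monocyte genes were mostly not apart from control. Of 20, 3 were higher and 1 lower without overlap, near the shares of 9.73% and 12.4% over all genes. The list median of 0.36 was 0.08 without D1 and D2. Vcan, versican, was 2.97, 2.64 and 2.32 in controls and 5.99, 8.08, 2.55 and 2.45 in rested libraries, and Ccr2, the chemokine receptor that releases monocytes from marrow, averaged 53.4 ± 4.44 in controls and 71.9 ± 20.5 in rested marrow. For both genes D8 lay within or under the control range, and after 10 defeats they averaged 25.2 ± 7.30 and 144 ± 30.3.

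Megakaryocyte and platelet genes were above control in rested marrow and below it directly after 10 defeats. All 30 listed genes were tested and all averaged higher than control, with a median of 0.89 in rested marrow and -0.64 after 10 defeats. In 22 of the 30 the rested libraries were higher without overlap, against 9.73% of all genes. With haemoglobin genes left out and totals made equal this count was 7, where 545 of all 12438 genes were higher without overlap. With totals made equal alone it was 27, where 1627 of 12442 were. At an unadjusted p under 0.05, 22 were higher, and 4 were called higher in the fit of these 7 libraries. Over all genes those shares were 7.44% and 0.772%. The difference between the rested and the unrested group was not tested here.

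Pf4, platelet factor 4, was 72.9, 58.0 and 94.6 in controls and 107, 178, 180 and 317 in rested libraries. Ppbp, the chemokine precursor stored beside it in platelet granules, was 93.1, 84.7 and 138 in controls and 152, 304, 273 and 435 in rested libraries. D8 was the highest and D1 the lowest rested library for both, and D1 was only just above the highest control. After 10 defeats Pf4 averaged 51.5 ± 13.9 and Ppbp 59.3 ± 27.6 (SD, n = 5).

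Among adhesion receptors Gp1ba, the chain that binds von Willebrand factor, was 6.08, 5.94 and 8.87 in controls and 9.82, 15.1, 13.4 and 20.5 in rested libraries, and 2.68 ± 1.46 (SD, n = 5) after 10 defeats. Itgb3, the beta chain of the fibrinogen receptor, was 16.4, 17.2 and 21.2 in controls and 26.2, 38.2, 32.8 and 49.4 in rested libraries, with a log2 difference of 0.94 (SE 0.23) and a limma adjusted p of 0.0432 in the fit of these 7 libraries. For both, every rested library was above every control. F2rl2, the thrombin co-receptor PAR3, whose promoter is shown above, averaged 4.03 ± 1.24 in controls and 10.4 ± 4.47 in rested marrow. Itga2b, the alpha chain of the fibrinogen receptor, was 35.7, 34.9 and 40.4 in controls and 37.5, 52.3, 48.8 and 102 in rested libraries, so that D1 overlapped the controls.

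The megakaryocyte list ran in the opposite order to the granulocyte lists. Its median was 0.38 in D1, 0.83 in D2, 0.87 in D3 and 1.40 in D8. It was 1.11 without D1 and D2, 1.21 with haemoglobin share as a covariate and 0.68 without D8. The genes of its transcription factors differed little, with Nfe2 at 0.13 and Fli1 at 0.17.

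Genes of the vessel and niche were mostly not apart from control. Of 16 endothelial genes 2 were higher and 1 lower without overlap, and of 17 stromal genes 1 was higher, where 9.73% of all genes were higher without overlap. Endothelial genes had a median of 0.32, or 0.17 without C2, with 6 higher and 1 lower at an unadjusted p under 0.05. Tie1, a receptor kinase of endothelium, was 1.60, 1.30 and 1.68 in controls and 2.35, 2.83, 2.43 and 3.57 in rested libraries. Its groups did not overlap, and it averaged 0.963 ± 0.20 (SD, n = 5) after 10 defeats. Pecam1, which platelets and leukocytes also carry, was the member that was lower, at -0.50. Igfbp4, a growth factor binding protein made by stroma, was 54.2, 44.5 and 47.4 in controls and 72.8, 73.4, 65.1 and 71.9 in rested libraries, the stromal gene without overlap. Gpnmb, a glycoprotein of macrophages and osteoclasts, was 1.14, 2.03 and 1.14 in controls and 3.72, 7.52, 2.49 and 5.63 in rested libraries. Of 5 osteoclast genes tested 2 were higher and 1 lower without overlap, with a median of 0.51 that was 0.20 without C2. Among the higher was Itgb3 (0.94), given above, which the megakaryocyte and platelet list also holds. The proton pump subunit Atp6v0d2 averaged 0.777 ± 0.109 in controls and 2.0 ± 0.670 in rested marrow, while Acp5, the tartrate-resistant acid phosphatase, differed by -0.61 and Nfatc1, a transcription factor of osteoclasts, by -0.04. Stem and progenitor genes had a median of 0.19 over 15 tested. Without overlap 6 were higher and 1 lower, where 9.73% and 12.4% of all genes were.

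Erythroid genes were lower on average in all 29 tested, but D1 and D2 carried most of it. Without overlap 9 were lower, where 12.4% of all genes were. The list median was -0.98 in D1, -0.50 in D2, -0.23 in D3 and -0.08 in D8, and -0.15 without D1 and D2. Hbb-bs, adult beta globin, was 159315, 152774 and 121697 in controls and 45265, 60262, 119042 and 126939 in rested libraries. D8 lay within the controls. Bpgm, which makes the red cell phosphoglycerate that loosens oxygen from haemoglobin, was 548, 571 and 474 in controls and 169, 200, 431 and 368 in rested libraries, without overlap. The fit of these 7 libraries called 0 of the 29 genes. Tissue macrophage genes had a median of -0.29 over 15 tested, or -0.12 without C4. The 2 that were lower without overlap, a share close to the 12.4% of all genes, were Cd5l at 18.5 ± 6.35 in controls and 9.88 ± 3.11 in rested marrow, and the haemoglobin scavenger receptor Cd163 at 8.04 ± 2.44 and 4.6 ± 1.17.

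Lipid mediator genes, the subject of the series, differed from list to list. Of 17 tested leukotriene and lipoxygenase genes 7 were higher and 1 lower without overlap, where 9.73% and 12.4% of all genes were. Their median was 0.38, and 0 were called in the fit of these 7 libraries. The median was 0.23 without D1, 0.20 without D1 and D2 and 0.19 with haemoglobin share as a covariate. Alox5ap, the protein that hands arachidonate to 5-lipoxygenase, was 490, 475 and 433 in controls and 872, 626, 597 and 619 in rested libraries. Alox5 itself was 57.6, 66.3 and 58.0 in controls and 113, 75.8, 71.9 and 63.6 in rested libraries. Alox5ap was above all controls in every rested library, while Alox5 overlapped through D8. Alox12, the platelet 12-lipoxygenase, was 8.44, 8.63 and 13.6 in controls and 14.3, 22.4, 21.7 and 33.9 in rested libraries, and 4.62 ± 1.81 (SD, n = 5) after 10 defeats. Alox15, the lipoxygenase of eosinophils and macrophages, was the member lower without overlap, at -0.82.

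Among prostanoid genes the median was 0.17 over 16 tested, and 0.05 without D1 and D2. Ptgs1, cyclooxygenase 1, was 17.8, 19.3 and 24.1 in controls and 32.4, 29.7, 26.1 and 25.0 in rested libraries, and Ptgir, the prostacyclin receptor, was 6.08, 7.02 and 6.12 against 12.2, 10.3, 8.86 and 8.25. Neither gene overlapped between groups. Hpgds, haematopoietic prostaglandin D synthase, averaged 3.17 ± 0.365 in controls and 2.86 ± 0.779 in rested marrow, with overlap, and 1.45 ± 0.416 (SD, n = 5) after 10 defeats. Another list held 18 genes for the making, transport and receptors of sphingosine phosphate and for receptors of pro-resolving and other lipids. Of these, 6 were higher and 3 lower without overlap, where 9.73% and 12.4% of all genes were. Their median was 0.17. The fit of these 7 libraries called 2 of them lower and 0 higher, and S1pr1 differed by -1.19.

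Fatty acid genes held a pair of distinctly lower members in a mixed list of 25 tested. Its median was -0.04 and turned positive with totals made equal. In it 5 were higher and 3 lower at an unadjusted p under 0.05, where 7.44% and 6.77% of all genes were. Without overlap 2 were higher and 3 lower, where 9.73% and 12.4% of all genes were. Scd1, a stearoyl-CoA desaturase, was 28.3, 34.8 and 28.9 in controls and 9.28, 10.3, 9.32 and 12 in rested libraries, and 4.00 ± 2.16 (SD, n = 5) after 10 defeats. Ephx1, microsomal epoxide hydrolase, was 9.87, 10.6 and 9.80 in controls and 3.86, 4.98, 4.96 and 6.02 in rested libraries. In both, every rested value was below every control, with limma adjusted p of 0.00253 and 0.0124 in the fit of these 7 libraries. Cholesterol synthesis genes had a median of 0.05 over 19 tested, with 1 higher and 1 lower without overlap, and turned negative with haemoglobin genes left out.

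Interferon and inflammatory genes had medians slightly above control that rested partly on single libraries. The interferon response list had a median of 0.23 over 26 tested, or 0.14 without D3. Without overlap 8 of them were higher and 0 lower, where 9.73% and 12.4% of all genes were. Oas1a, an antiviral oligoadenylate synthetase, was 10.9, 10.1 and 6.90 in controls and 21.3, 16.1, 17.6 and 14.3 in rested libraries. Its groups did not overlap, while Isg15 and Mx2 differed by -0.08 and -0.01. The inflammatory list had a median of 0.20 over 18 tested, or 0.0074 without D1 and D2, and Il1rn, the interleukin 1 receptor antagonist, averaged 21.2 ± 1.23 in controls and 33.9 ± 7.11 in rested marrow. Saa3, an acute phase protein, was 1.03, 0.824 and 41.1 in controls and 0.706, 0.872, 1.39 and 0.518 in rested libraries, so that C4 alone was high.

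Several programmes that were tested had medians near control, while some of their members lay apart. Without overlap 3 of 17 immediate early genes were higher and 3 lower, where 9.73% and 12.4% of all genes were. For 20 glucocorticoid response genes the counts were 6 and 1, and for 17 integrated stress response genes 5 and 0. With haemoglobin genes left out and totals made equal the 3 lists had 1 and 4, 3 and 1, and 2 and 4. Fos, the immediate early gene that averaged 40.7 ± 16.9 (SD, n = 5) after 10 defeats, was 2.42, 2.92 and 2.13 in controls and 5.56, 4.10, 2.32 and 3.10 in rested libraries, with overlap. Fkbp5, a glucocorticoid-induced chaperone of the glucocorticoid receptor, averaged 38.4 ± 8.91 in controls and 36.6 ± 11.2 in rested marrow. Mki67, a marker of dividing cells, averaged 128 ± 14.2 and 110 ± 10.0. List medians were -0.07 for S phase, -0.11 for G2/M phase, 0.10 for immediate early, 0.04 for glucocorticoid response, 0.06 for heat shock, 0.05 for the integrated stress response, -0.05 for the circadian clock, 0.06 for ribosomal protein and -0.16 for mitochondrially encoded genes. For the first 8 of these the sign turned under one of the rescalings to equal totals, with or without haemoglobin genes, so no direction is given. Skeletal muscle (3 tested, median -0.46), eosinophil (9 tested, -0.23) and basophil and mast cell genes (9 tested, 0.06, of either sign under those rescalings) completed the lists.

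**Figure D5:**
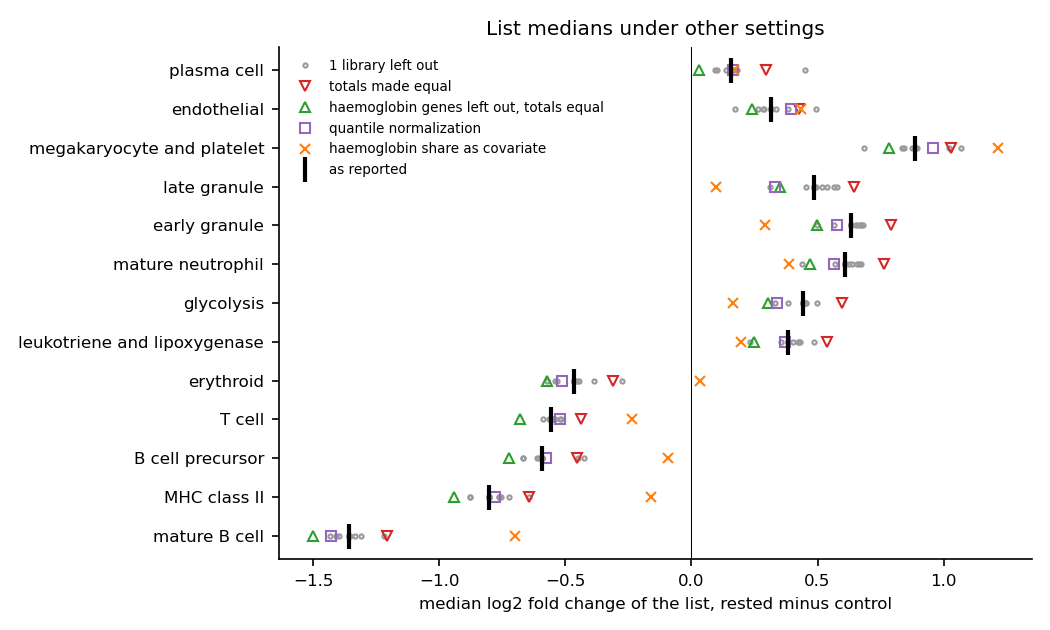
For 13 gene lists, the median log2 fold change between rested and control marrow as reported (black) is set beside its values under other settings and with single libraries left out. The mature B cell list stays between -1.50 and -0.70 and the megakaryocyte and platelet list between 0.68 and 1.21, while the erythroid list reaches 0.03 with haemoglobin share as a covariate.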

How the data were processed

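Polyadenylated RNA of femoral bone marrow was sequenced from stranded libraries, per the labels' protocols. The deposited table holds a signal for each gene, an abundance put on a common scale by the authors; which quantity was exported is not given in the labels. The tools kallisto 0.46.1 and sleuth and the build GRCm38 are named in the submitters' processing notes. Read counts were not analysed here, so depth is an estimate from steps between low values, of which 64.6% to 71.7% lay within 0.1 of a whole read; it limits the precision of low values.

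Of 35885 gene identifiers 35629 (99.3%) matched GENCODE M21. The 12442 genes reaching a value of 1 in 3 or more marrow libraries were tested on log2(value + 1), a scale that understates changes of low genes, with limma 3.58.1 in R 4.3.3, a trended and robust prior and Benjamini-Hochberg adjustment at 0.05. The fit took all 19 marrow libraries in 5 groups, as used in earlier work on these data; the fit of 7 libraries is an alternative that was known to call more. The test was also run on simulated data in which all groups had the same spread for a gene. The groups here differ in spread, and how that affects the test was not examined. Members and the 38 gene lists, including those from which list members were named, were chosen with earlier results of these data known. Of 703 list genes 701 had a row; Ahsp and Gpr32 were not analysed here. Of all pairs of marrow libraries 0 were identical. The limma p values set each difference against a spread per gene, estimated within groups over all libraries of the fit and moderated by the prior.

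Genes named were, among those without overlap between groups, whose higher group averaged 2 or more and whose unadjusted p was under 0.05, the 12 largest differences in each direction, leaving out gene models, pseudogenes and receptor segments; up to 3 members per list with the smallest p in the direction of the list median; and a fixed set. Other names within lists, and those in the closing section, were chosen after their values were seen. Promoter sequences are from RefSeq. Spleen libraries were not used here. One gene that the rule named is not reported here.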

Additional observations from a re-analysis of the deposited data

Results flagged for a closer look

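In 7 of 150 values examined in the 4 rested libraries, a library stood apart from the others by more than 0.829 of the group's range. Chance gives about 1 in 20 such groups. In 6 of them the library was D1. Tppp3, a tubulin-binding protein, was 17.9 in D1 and 4.24 to 4.74 in the other rested libraries. Ms4a1 was 11.4 in D1, the highest of 4 low values. Sox4, a factor of lymphoid progenitors, was 6.17 in D1, below the others at 7.56 to 7.75. Pglyrp1, a bactericidal granule protein, was 1367 in D1 and 944 to 993 elsewhere, Msrb1, a methionine sulfoxide reductase, was 522 in D1 and 393 to 403 elsewhere, and Alox5ap was 872 in D1. Srpk3, a splicing factor kinase, was 2.35 in D2 and 4.37 to 4.6 in the others. The haemoglobin share in D1 was 16.1%, the lowest of the 7 libraries, and its part in these values was not tested.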

How the results depend on the processing

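The 0 genes called rested on the groups and settings of the fit. Higher and lower calls numbered 24 and 47 (71 in all) with quantile normalization, 1050 and 1481 (2531) with library weights, 1 and 4 (5) with no filter and 1 and 0 (1) with haemoglobin share as a covariate. Leaving out single libraries gave 0 to 46 calls, 0 to 11 higher and 0 to 36 lower: 42 without D6 of the 10 times defeated group, 46 without D17 of the once defeated, 14 without D11 of the 4 times defeated, and 0 without any rested or control library. In the fit of the 7 libraries alone there were 96 and 288 calls (384), 19 and 69 (88) with totals made equal, 176 and 306 (482) with median-ratio rescaling, 150 and 285 (435) with quantile normalization, 785 and 1211 (1996) with library weights and 169 and 321 (490) without D1 and D2. Leaving out single libraries there gave 48 to 587 calls, 3 to 258 higher and 44 to 329 lower, with 48 without C2 or C4 and 587 without D8.

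At an unadjusted p under 0.05, 926 genes were higher and 842 lower. The higher count was 1636 with totals made equal, 564 with the haemoglobin covariate, 405 without D1 and D2, 480 with haemoglobin genes left out and 1863 with library weights. The lower count was 266, 539, 724, 1275 and 2552 under the same settings and 1467 with no filter. In the fit of 7 libraries the higher count was 1521 with totals made equal, 1427 with median-ratio rescaling, 1442 with quantile normalization and 1671 with weights. The lower count was 1514 as deposited, 442, 1405, 1388 and 2390 in that order, and 1804 without D1 and D2. Single libraries left out gave 550 to 1171 higher and 510 to 1086 lower in the fit of 5 groups, and 779 to 1664 and 984 to 1587 in the fit of 7 libraries. The cause was not tested.

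Of 6528 values of named genes under 44 settings, 44 had the other sign, in 14 genes, 13 of them in Vpreb1a, whose reported -0.02 is near 0. In 3 of the 44 the gene passed an unadjusted p under 0.05 as reported or an adjusted p under 0.05 in that setting: Vpreb1a, which ranged from -0.28 without D2 to 0.62 without D1 in the fit of 7 libraries, and Hbb-bs, 0.026 and 0.024 with quantile normalization in the fits of 5 groups and of 7 libraries. Of 1672 list medians 63 had the other sign, in 15 lists, and 92 moved by more than the spread. In 4 of the 63 the reported median was 0.2 or more from 0: erythroid 0.035 with the haemoglobin covariate, eosinophil 0.043 and 0.020 with library weights in the same pair of fits, and osteoclast -0.042 with a minimum value of 5. The haemoglobin difference lay between -17.4 and -9.71 percentage points with single libraries left out. No paired analysis was possible because the rested and control marrow libraries share no replicate label. Weights, scalings and left-out libraries within the fit of 7, and leaving out D1 and D2, were chosen after seeing the data.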

Other observations

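Immunoglobulin constant genes of naive B cells were lower without overlap, while of the class-switched ones Igha alone was higher without overlap, the IgG genes Ighg1, Ighg2b, Ighg2c and Ighg3 overlapping. Ighd, the constant region of IgD, was 99.1, 121 and 94.0 in controls and 30, 22.9, 20.1 and 40.2 in rested libraries, and Ighm, that of IgM, was 1020, 1192 and 1255 against 584, 630, 610 and 728. Neither overlapped between groups. All 5 kappa joining segments were lower without overlap, where 12.4% of all genes were, by -2.32 to -1.30 on the log2 scale. The fit of 7 libraries called each, while in the fit of 5 groups 1 had an unadjusted p under 0.05. Variable segments showed no common direction: of 97 heavy chain segments 3 were higher and 4 lower at an unadjusted p under 0.05, and of 90 kappa segments 5 and 7. Over all genes 7.44% were higher and 6.77% lower at that p. Segment reads are short or shared between near-identical copies, so these values are uncertain.

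The 8 tested Gimap genes, GTPases of lymphocyte survival, were all lower without overlap, where 12.4% of all genes were, by -1.12 to -0.57. Gimap8 was 8.96, 10.8 and 10.5 in controls and 4.01, 4.07, 3.85 and 4.50 in rested libraries. Of 5 tested H2-Q genes, near-identical class I copies, H2-Q4, H2-Q5, H2-Q6 and H2-Q7 were lower without overlap and H2-Q10 was higher, at 34.2, 32.9 and 32.2 in controls and 43.8, 47.2, 47.2 and 40.2 in rested libraries. Other B cell genes called lower in the fit of 7 libraries were Cd40, at -1.0, Ikzf3, at -1.17, and Ffar1, a fatty acid receptor, at 2.19, 2.92 and 2.12 in controls and 0.549, 0.744, 0.531 and 0.651 in rested libraries.

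On the higher side, 7 of 11 tested S100a genes did not overlap, where 9.73% of all genes were higher without overlap. S100a6 was 611, 639 and 543 in controls and 1347, 1047, 996 and 935 in rested libraries. F2rl3, the thrombin receptor PAR4 of platelets, was 1.59, 1.66 and 1.79 in controls and 3.23, 5.48, 3.73 and 6.53 in rested libraries, and Plek, pleckstrin of platelets and leukocytes, was 39.7, 41.7 and 50.7 against 74.9, 83.4, 66.9 and 71.8. Ifitm1, an interferon-induced membrane protein, was 66.0, 54.2 and 60.7 in controls and 351, 156, 103 and 83.8 in rested libraries, and Ifitm3 averaged higher by 0.75. Plin2, which coats lipid droplets, was 36.8, 33.1 and 33.0 in controls and 65.0, 50.9, 48.5 and 46.0 in rested libraries. In each of these genes every rested value exceeded every control, and all were chosen after their values were seen.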
